A study of Mus musculus with 4 samples.

Results

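Keratins are the intermediate filament proteins of epithelial cells. A filament is built from a type I (acidic) and a type II (basic) chain, so the genes are used in pairs: Krt18 with Krt8 in simple epithelia, Krt14 with Krt5 in the basal layer of stratified epithelia, and Krt10 with Krt1 in the layers above it, while the inner root sheath and the shaft of the hair each use sets of their own. In the inner ear the simple pair is known from supporting cells and other non-sensory epithelium, and inner ear organoids, which begin as surface ectoderm, are known to form skin beside the otic epithelium. The keratin genes were taken as every entry of the deposited gene table whose symbol is Krt followed by a number and at most 1 letter, which gave 51 of 27998 genes, 28 of type I and 23 of type II.

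The 4 libraries came from three-dimensional inner ear organoids grown from mouse embryonic stem cells of the derived strain 129X1x129S1. Wild-type (WT) organoids were made from the R1/E line and knockout (KO) organoids from R1/E-Tmprss3KO-GFPKI, in which Tmprss3, a membrane serine protease gene of hair cells, is disrupted and a GFP reporter is knocked in. Each genotype was sampled at day 25 and at day 35 with 1 droplet library (3' counting with unique molecular identifiers, UMIs). The sources used here do not say how many organoids went into a library or whether the KO line is 1 clone. With 1 library per group no difference below has a test: the values are UMI counts and CPM, which are the UMIs of a cell class and library scaled to 1000000, and the intervals are exact 95% intervals that cover counting error only, not the variation between cultures or lines.

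Of 7077 to 11307 barcodes per library, 88.3% to 99.0% had at least 500 genes and at most 10% mitochondrially encoded UMIs, which left 6729 to 11190 cells and 30887121 to 84439223 UMIs. The WT library at day 35 was the shallowest (median 3089 UMIs per cell, against 4420 to 6371 in the others) and had the highest median mitochondrial share (4.81%, against 2.16% to 3.42%). Libraries shared 76 to 142 barcode sequences pair by pair, at most 1.58% of the smaller library. Tmprss3 itself had 18 and 7 UMIs in the WT and KO libraries of day 25 and 8 and 5 in those of day 35; a 3' tag may lie outside the disrupted part, so these counts are no check of the labels. No doublet was removed.

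Classes of cells were built without the keratin genes, so no class rests on the counts described here. The keratinocyte-like class (622 WT and 339 KO cells at day 25, 142 and 161 at day 35) was led by Lgals7, Krtdap, Sfn and Ly6d. Its 22 non-keratin keratinocyte markers summed to 10579 CPM (WT) and 9111 CPM (KO) at day 25 and 6144 CPM (WT) and 14734 CPM (KO) at day 35, against 87.6 to 163 CPM in all remaining cells. The otic epithelial-like class other than hair cells (190, 170, 938 and 1241 cells in the same order) was led by Otol1, Cldn9, Fbxo2 and Otoa, and its 18 otic markers summed to between 2731 and 4691 CPM, against 173.8 to 265 CPM in keratinocyte-like cells. Hair cell-like cells (20, 10, 61 and 36) were led by Ccer2, Acbd7, Cabp2 and Pvalb. An unnamed epithelial cluster, cluster 17 (256, 78, 658 and 232 cells), was led among named genes by Cldn10, Lect1, Napsa, Cited1 and Slpi, and is given separately because its keratin level was the highest outside the keratinocyte-like class.

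The keratins together had 195909 UMIs in the kept cells, of which 71.5% were of type I and 28.5% of type II. Members of the simple epithelial group held 53.1% of them, the basal stratified group 31.1%, the suprabasal group 8.89%, the hair shaft group 2.23%, the inner root sheath group 2.02%, the stress and companion layer group 1.61%, the mucosal and corneal group 0.424% and the remaining members 0.572%. Of the 51 genes, 34 had at least 20 UMIs over the 4 libraries, 13 had between 1 and 19, and 4 (Krt34, Krt39, Krt72 and Krt74) had none. Krt18 alone accounted for 61574 UMIs, Krt8 for 32607 and Krt14 for 24382. UMI counts from the 3' end do not scale with transcript length, but capture can differ between genes. Neither CPM nor a ratio of UMIs corrects for that, which limits every comparison of different genes below.

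**Figure D1:**
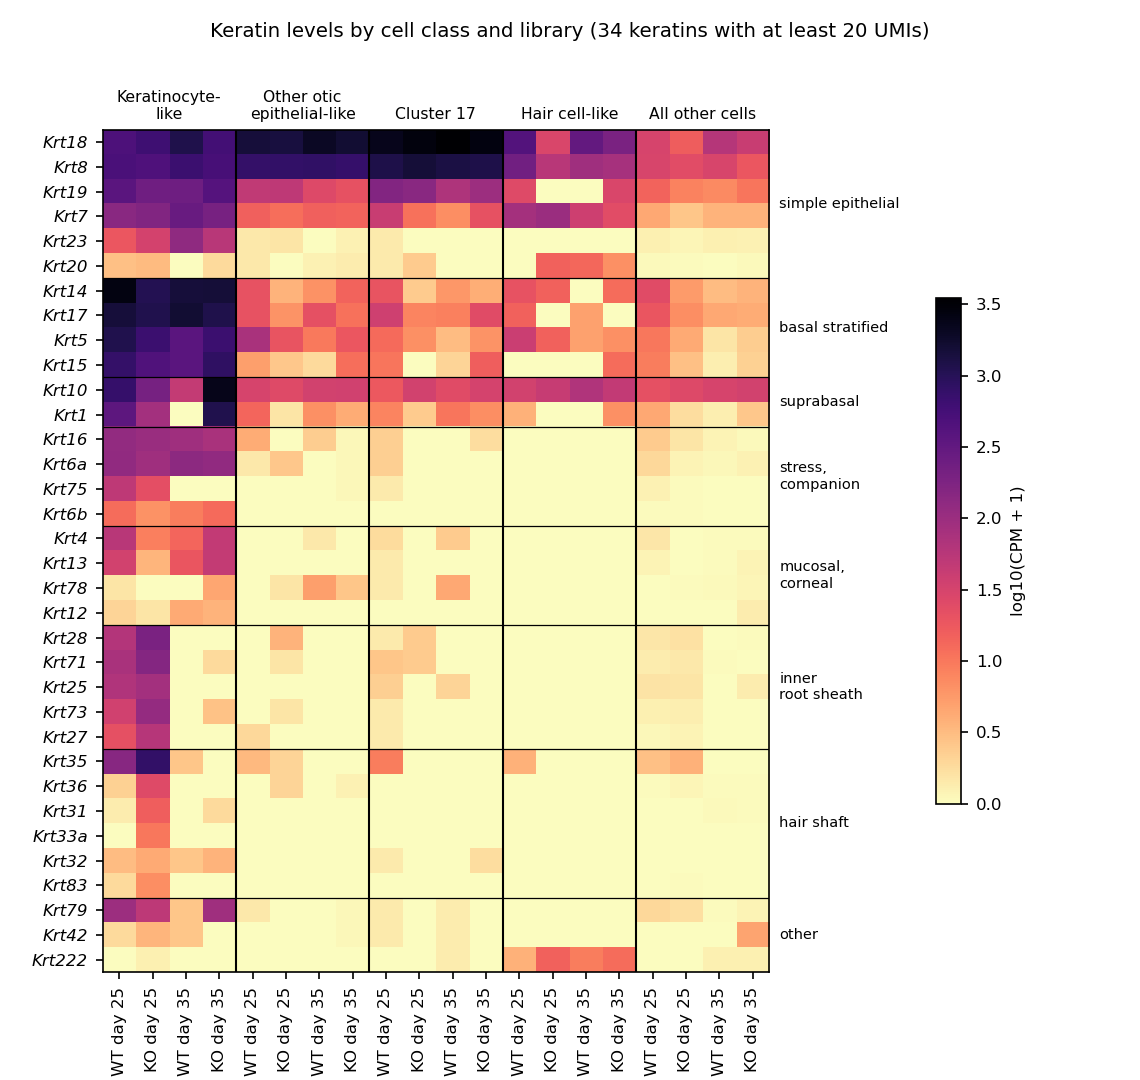
Level of the 34 keratins with at least 20 UMIs (rows, by group of keratins) in 5 sets of cells and the 4 libraries (columns); the colour is log10 of CPM plus 1. Krt18 and Krt8 are dark in every epithelial set, the basal and suprabasal members are dark in keratinocyte-like cells, and the inner root sheath and hair shaft members have colour almost entirely in keratinocyte-like cells of day 25.

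Over whole libraries the summed keratin level of day 25 was 1112 CPM for WT and 472 CPM for KO, and that of day 35 was 1131 CPM and 1043 CPM. Only the KO library of day 25 was low. In such whole-library sums fewer cells of a type and less RNA per cell cannot be told apart. The makeup of the sum differed by day: at day 25 simple epithelial keratins were 34.1% (WT) and 41.9% (KO) and basal keratins 48.9% and 33.1% of keratin UMIs, and at day 35 simple keratins were 88.8% and 71.8% and basal keratins 7.64% and 13.5%. Keratinocyte-like cells held 68.9% and 62.0% of a library's keratin UMIs at day 25 and 11.5% and 27.7% at day 35, whereas the otic class held 6.65% and 11.1% at day 25 and 38.6% and 50.02% at day 35. Cluster 17 held 11.2%, 7.95%, 40.9% and 13.9% (WT and KO at day 25, WT and KO at day 35).

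Per cell class, the summed keratin level in keratinocyte-like cells was 9584 CPM (9504 to 9663) in WT and 6859 CPM (6773 to 6945) in KO at day 25, and 6554 CPM (6353 to 6760) and 9838 CPM (9656 to 10023) at day 35. In the otic class it was 2450 CPM (2385 to 2516), 2301 CPM (2233 to 2369), 2923 CPM (2874 to 2973) and 2472 CPM (2438 to 2507), and in cluster 17 it was 3773, 4511, 4889 and 4137 CPM in the same order. Hair cell-like cells were at 867, 279.8, 522 and 412 CPM, below both of these epithelia in every library, and all remaining cells at 167, 95.9, 134 and 118 CPM.

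**Figure D2:**
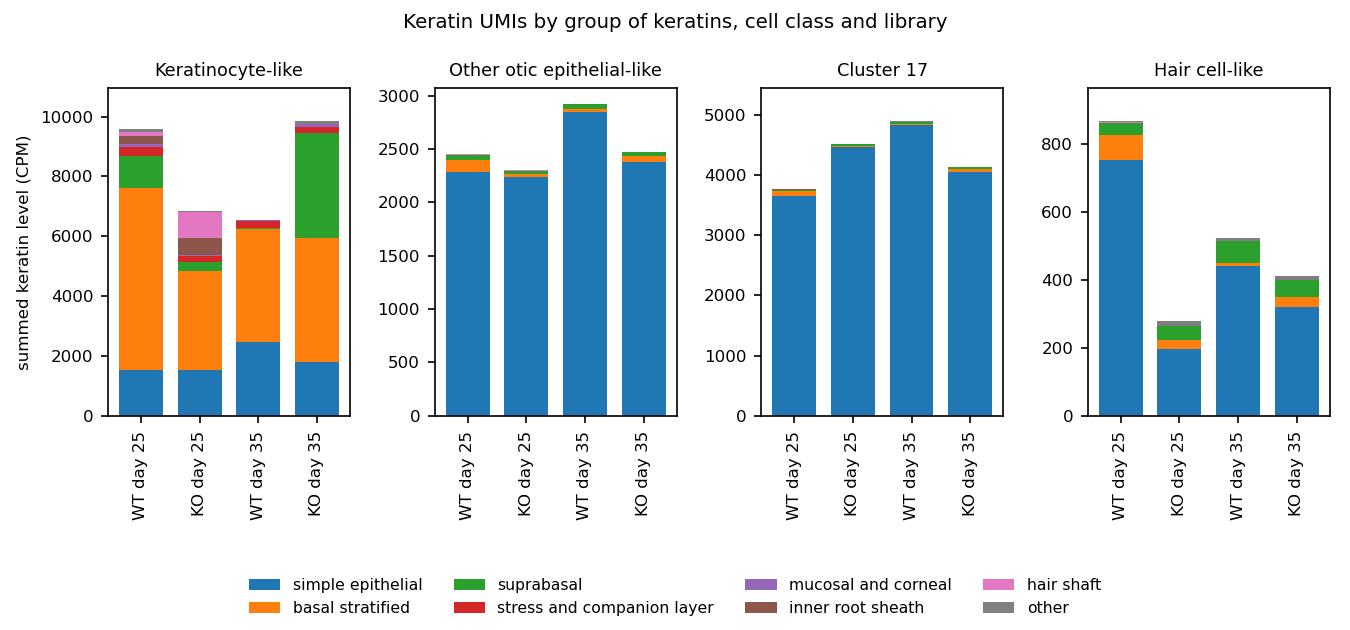
Summed keratin level (CPM, linear axis with its own scale in each panel) by group of keratins (colours) for 4 cell sets and the 4 libraries. Basal keratins are the largest part of each keratinocyte-like bar, from 42.3% (KO day 35) to 63.6% (WT day 25) of keratin UMIs. The suprabasal part of these bars is 3485 CPM in KO day 35 and 43.9 CPM in WT day 35. Simple epithelial keratins are the largest part in the other 3 sets. They hold 93.1% to 97.3% of keratin UMIs in the otic class and 70.0% to 87.0% in hair cell-like cells.

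The simple epithelial pair was described first, since it is the keratin of the otic epithelium. Krt18 (type I; GRCm38 chromosome 15, 102028180 to 102032027, plus strand) had a level of 1456 CPM (WT) and 1387 CPM (KO) in the otic class of day 25, and of 1993 CPM and 1603 CPM in that of day 35. Its partner Krt8 (type II; chromosome 15, 101996698 to 102004482, minus strand) was at 763, 791, 809.5 and 744 CPM. Krt8 therefore lay within a narrow band over the 4 libraries and Krt18 was highest in WT at day 35. Krt18 is the only type I gene outside the type I cluster of chromosome 11: it lies beside the type II cluster, with its start 23.7 kb from that of Krt8.

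Cluster 17 had more of both than the otic class in every library, with Krt18 at 2247, 2816, 3499 and 2748 CPM and Krt8 at 1204, 1491, 1262 and 1189.9 CPM. Hair cell-like cells had less, with Krt18 at 421, 28.0, 302 and 186 CPM and Krt8 at 226, 56.0, 89.8 and 79.0 CPM. The KO value at day 25 rests on 2 Krt18 UMIs in 10 cells. Krt18 had a UMI in 12 of 20, 2 of 10, 16 of 61 and 4 of 36 hair cell-like cells, and Krt8 in 13, 1, 8 and 5. These levels are therefore not those of most hair cell-like cells at day 35. Keratinocyte-like cells had Krt18 at 484, 636, 1154 and 580.4 CPM and Krt8 at 503, 456, 679.6 and 546 CPM. In the mesenchyme or fibroblast-like class, which should lack the pair, Krt18 was at 12.2 to 38.5 CPM and Krt8 at 7.83 to 21.1 CPM.

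Both genes were seen in the same cells. After every cell was thinned to 2000 UMIs, 58.4% and 46.5% of otic cells had a UMI of both Krt8 and Krt18 at day 25 (WT and KO) and 60.9% and 55.6% at day 35, cells under that depth (44 in WT at day 35) being left out. In cluster 17 the shares were 75.4%, 78.2%, 70.8% and 76.3%, and in keratinocyte-like cells 23.5%, 24.2%, 27.6% and 29.2%. The mesenchyme or fibroblast-like class gave 0.126% to 0.693%. Hair cell-like cells gave 5%, 0%, 5.45% and 5.56%, of 20, 10, 55 and 36 cells. Without thinning, Krt18 alone had a UMI in 84.7% to 93.1% of otic cells at median depths of 3678 to 8491.5 UMIs, and in 7.01% to 12.1% of mesenchyme or fibroblast-like cells at 2856 to 6102 UMIs.

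Krt19 and Krt7, also of the simple group, were lower in the same tissues. Krt19, a small type I keratin without a tail domain, was at 371, 239, 240.6 and 410.0 CPM in keratinocyte-like cells, at 163, 141, 66.4 and 94.5 CPM in cluster 17 and at 47.6, 48.2, 25.6 and 20.04 CPM in the otic class. Krt7, a type II keratin of glandular and ductal epithelia, was at 143, 168, 273 and 202 CPM in keratinocyte-like cells and at 10.9 to 14.3 CPM in the otic class. In hair cell-like cells Krt7 was at 82.5, 97.9, 36.7 and 22.6 CPM, above its otic level in each library, on 30, 7, 9 and 4 UMIs. The 3 richest cells held 66.7%, 71.4%, 66.7% and 100% of these UMIs. In KO day 35 the interval, 6.15 to 57.8 CPM, took in the otic level of 13.2 CPM.

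Outside epithelium the pair was not always balanced. In the skeletal muscle-like cluster led by Myog, Krt8 was at 88.2, 96.9, 31.1 and 40.0 CPM and had a UMI in 33.7%, 28.1%, 9.79% and 8.06% of cells, whereas Krt18 was at 32.5, 13.7, 31.1 and 20.02 CPM. At day 25 no 3 cells of that cluster held more than 8.60% of its Krt8 UMIs, so the level was spread over cells. The Krt18 over Krt8 ratio of this cluster, with libraries pooled, was 0.25 (0.21 to 0.29), against 2.31 in cluster 17 and 1.15 in keratinocyte-like cells. Most of these pooled UMIs were of day 25, with 103 Krt18 and 279 Krt8 UMIs in WT and 71 and 502 in KO. At day 35 the counts were 20 and 20 in WT and 6 and 12 in KO, so the pooled ratio describes day 25. In the pluripotent-like cluster, 319 of whose 334 cells were of KO day 35, Krt42 had 100 of its 123 UMIs (18.3 CPM); this gene, a type I member of the chromosome 11 cluster, was picked after its values were seen.

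**Figure D3:**
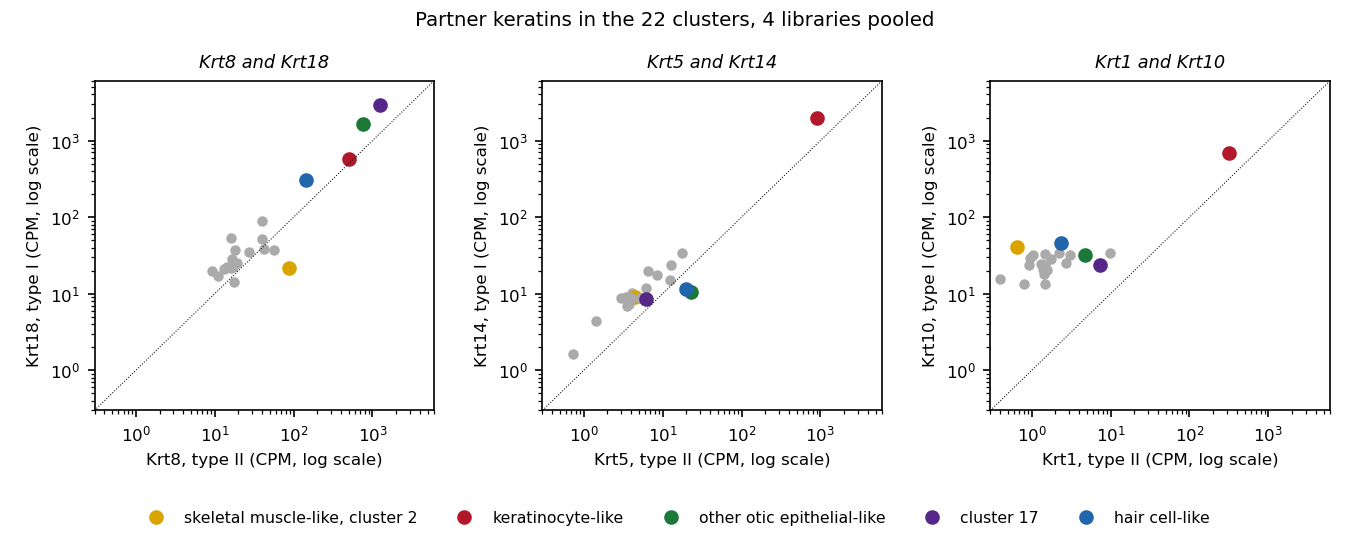
Partner keratins in the 22 clusters with the 4 libraries pooled, the type II member on the x axis and the type I member on the y axis (CPM, log scales; the dotted line marks equal levels). Krt8 and Krt18 lie together over more than a 100-fold range except in the Myog skeletal muscle-like cluster, while Krt5 with Krt14 and Krt1 with Krt10 are highest in the keratinocyte-like cluster.

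The basal pair was the mark of the keratinocyte-like class. Krt14 (chromosome 11, 100203162 to 100207548, minus strand) was at 2708 CPM (WT) and 1056 CPM (KO) on day 25 and at 1450.35 CPM and 1483 CPM on day 35. Krt5 (chromosome 15, 101707070 to 101712898, minus strand) was at 1144, 669, 364 and 678 CPM. Both were highest in WT day 25; Krt14 was lowest in KO day 25 and Krt5 in WT day 35.

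Krt15, a type I keratin of basal cells and of the hair follicle bulge, was at 778, 453, 366 and 851 CPM, and Krt17, a type I keratin of appendages and of activated epidermis, at 1464, 1124, 1585 and 1148 CPM. The stress keratins Krt16 and Krt6a, which are switched on in wounded epidermis, were at 117, 102, 89.4 and 73.7 CPM and at 120.3, 91.3, 133 and 119 CPM. Each of Krt17, Krt16 and Krt6a thus differed by less than 2-fold between the 4 libraries. Krt6b, also of the stress and companion layer group, was at 11.1, 5.55, 8.13 and 11.5 CPM, on 65, 20, 5 and 13 UMIs. After thinning to 2000 UMIs, 42.3%, 27.7%, 33.6% and 38.5% of keratinocyte-like cells had a UMI of both Krt5 and Krt14, against at most 0.161% of otic cells and at most 0.126% of mesenchyme or fibroblast-like cells in any library.

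Comparisons between libraries were made gene by gene over all genes, and a gene was called when it had at least 20 UMIs over both libraries, a ratio of at least 2-fold and an interval without equality. In keratinocyte-like cells at day 25, KO over WT, 9 keratins were called higher and 7 lower of 29 compared, where 2.66% of all 11830 genes compared were called higher and 2.35% lower. The higher keratins were of the hair follicle: Krt35, Krt36, Krt31, Krt33a and 1 more of the shaft, and Krt28, Krt73, Krt27 and Krt71 of the inner root sheath. The lower ones were basal, suprabasal, mucosal and companion layer keratins, led by Krt13, Krt4, Krt1, Krt10 and Krt14; the other two were Krt75 and Krt6b (-1.004, -1.81 to -0.26), which was just past 2-fold, at -0.65 without the finer cluster described below, and had its UMIs in 13 cells in WT and 6 in KO. The median log2 ratio of the 29 was -0.14, against 0.00 for all genes, and the summed keratin level was lower in KO (log2 ratio -0.48, -0.50 to -0.46).

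Krt10 (chromosome 11, 99385254 to 99389364, minus strand), the type I keratin of cells that have left the basal layer, had 738 CPM in WT and 208 CPM in KO at day 25 (log2 ratio -1.82, -1.94 to -1.71). Its partner Krt1 (chromosome 15, 101845426 to 101850794, minus strand) had 342 and 84.1 CPM (-2.02, -2.20 to -1.85). The mucosal pair Krt4 and Krt13, of oesophagus and other wet stratified epithelia, had 55.9 and 7.77 CPM (-2.85, -3.46 to -2.29) and 33.1 and 2.50 CPM (-3.73, -4.88 to -2.77). All 4 genes were lower in the KO library. Krt14 was lower as well (-1.36, -1.41 to -1.31), but without the finer cluster described next its log2 ratio was -0.76, short of 2-fold. Krt5 had a log2 ratio of -0.77 and was not called. The Krt75 call, a companion layer keratin at 48.1 and 21.1 CPM (-1.19, -1.58 to -0.82), turned to 0.08 with the stricter cell filter.

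Hair follicle keratins were expressed in few cells, and in the day 25 libraries. Inner root sheath keratins of keratinocyte-like cells summed to 255 CPM in WT (242 to 268) and 594 CPM in KO (569 to 620) at day 25. The same class gave 0 UMIs (WT) and 3 UMIs (KO) at day 35. Hair shaft keratins of this class summed to 149 CPM (140 to 160) and 853 CPM (824 to 884), with 2 and 5 UMIs at day 35. A count of 0 in the 615026 UMIs of the WT day 35 class allows up to 4.88 CPM.

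Cells with at least 5 inner root sheath UMIs numbered 27 of 622 in WT and 40 of 339 in KO, and cells with at least 5 hair shaft UMIs numbered 20 and 44; 2 cells of each library had both. The 10 richest cells held 85.6% and 79.7% of the inner root sheath UMIs and 71.9% and 53.7% of the shaft UMIs, with up to 408 inner root sheath UMIs in 1 cell. At day 35 no keratinocyte-like cell of either library reached 5 UMIs of either set.

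Among the shaft members Krt35, a type I keratin of the hair matrix and lower cortex, led with 144 CPM (WT) and 795 CPM (KO) at day 25 (log2 ratio 2.46, 2.35 to 2.58), and with 1 and 0 UMIs at day 35. Krt36 had 1.20 and 24.2 CPM at day 25 (4.33, 3.23 to 5.69) and Krt31 had 2 UMIs in 2 WT cells and 54 in 2 of 339 KO cells (5.45, 3.53 to 8.53). Krt33a had 0 UMIs in WT and 33, in 3 cells, in KO. Its level was 17.8-fold higher in KO with WT set to the floor of 3 counts over the class. The lower bound of that log2 ratio was 3.78. The counts of these 4 shaft members were thus higher in the KO library, Krt35 carrying most of the UMIs and Krt31 and Krt33a resting on 2 and 3 cells.

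Among the inner root sheath members Krt28 (type I; chromosome 11, 99364872 to 99374903, minus strand) had 61.5 and 187 CPM (1.61, 1.42 to 1.79) and Krt27 (type I) 20.9 and 56.4 CPM (1.43, 1.10 to 1.77). The type II members Krt71 and Krt73 had 73.0 and 154 CPM (1.08, 0.89 to 1.26) and 33.9 and 112 CPM (1.72, 1.47 to 1.97). Krt25 (type I) had 65.6 and 84.95 CPM (0.37, 0.15 to 0.59) and was not called. Within the keratinocyte-like class each of the 5 was higher in KO than in WT at day 25 and had at most 2 UMIs in either library at day 35. Over all kept cells of KO day 35 Krt25 had 10 UMIs.

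These levels moved with a finer cluster. A clustering of all cells at the higher resolution of 2.0 gave a keratinocyte-like cluster led by Mt4, Dapl1 and S100a3, with 118, 114, 8 and 21 cells, and another led by Krtdap and Ly6d, with 503, 226, 135 and 138 cells. Krt35 was at 606 and 1762 CPM in the first at day 25 and at 0.675 and 250.03 CPM in the second, in WT and KO. Krt14 was at 3636 and 404 CPM in the first and at 2423 and 1421 CPM in the second. Without the cells of the first cluster the log2 ratios, KO over WT at day 25, were 8.49 for Krt35, 5.15 for Krt36, 1.85 for Krt28, 1.63 for Krt27, 1.58 for Krt71 and 2.44 for Krt73, so all 6 were higher in KO there too. The sizes for Krt35 and Krt36 rest on few WT UMIs. WT Krt35 was at 0.675 CPM in the second cluster, and WT Krt36 had 7 UMIs in the whole keratinocyte-like class of day 25. As a mean over cells of each cell's own CPM Krt71 was at 0.64, short of 2-fold.

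The promoters of the inner root sheath genes are shown because these genes, on 2 chromosomes, were detected in the same libraries of day 25; Krt10 and Krt18 are shown for comparison. Each stretch runs from 100 bases before to 20 bases after the gene's start, 5' to 3' on the gene's strand, from RefSeq on GRCm38.p6: Krt28 at chr11:99374884-99375003, Krt25 at chr11:99322932-99323051, Krt73 at chr15:101802341-101802460, Krt71 at chr15:101743078-101743197 and Krt10 at chr11:99389345-99389464 (all minus strand), and Krt18 at chr15:102028116-102028235 (plus strand). The starts are those of RefSeq, and for Krt18, Krt71 and Krt73 they differ from the GENCODE starts of the gene positions. Distances given below hold for the RefSeq starts. Capitals mark the letters TATAAA, the core of a TATA box.
Krt28: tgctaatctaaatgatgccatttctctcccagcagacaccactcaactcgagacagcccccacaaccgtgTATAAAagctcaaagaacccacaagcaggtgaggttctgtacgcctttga
Krt25: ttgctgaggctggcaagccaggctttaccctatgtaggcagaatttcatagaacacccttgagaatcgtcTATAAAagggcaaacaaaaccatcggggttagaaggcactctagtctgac
Krt73: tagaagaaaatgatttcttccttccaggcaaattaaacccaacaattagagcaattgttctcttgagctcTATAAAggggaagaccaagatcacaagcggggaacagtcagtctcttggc
Krt71: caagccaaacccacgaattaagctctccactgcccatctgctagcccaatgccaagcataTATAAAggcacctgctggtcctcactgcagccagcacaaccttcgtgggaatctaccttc
Krt10: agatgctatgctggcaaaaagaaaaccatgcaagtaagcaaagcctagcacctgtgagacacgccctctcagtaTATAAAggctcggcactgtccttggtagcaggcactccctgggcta
Krt18: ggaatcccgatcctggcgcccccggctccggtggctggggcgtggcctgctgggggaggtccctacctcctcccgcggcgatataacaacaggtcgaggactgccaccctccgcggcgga
The letters TATAAA began 30 bases before the start in Krt28, Krt25 and Krt73, 40 bases before it in Krt71 and 26 in Krt10, and were not in the Krt18 window. Searched on both strands, they were in 6 of 7 windows of inner root sheath genes, 5 of 9 of hair shaft genes, 1 of 4 of suprabasal genes, 2 of 5 of simple epithelial genes and 0 of 2 of basal genes, and in 16 of 36 keratin windows in all (44.4%), against 2003 of 32851 windows of all genes (6.10%). The table held 35 of the 51 keratin genes. A match is a description of these letters and not of a factor bound there.

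At day 35 the keratinocyte-like classes differed mostly in the suprabasal pair. KO over WT, 6 keratins were called higher and 1 lower of 16 compared, where 4.46% of all 7356 genes compared were called higher and 3.93% lower. Krt10 had 2362 CPM in KO and 43.9 CPM in WT (log2 ratio 5.75, 5.21 to 6.35). Krt1 had 1262 UMIs in KO and 0 in WT, 229.6-fold higher with WT at the floor of 3 counts. The lower bound of the Krt1 log2 ratio was 7.54. Krt79, a type II keratin of the upper hair follicle and sebaceous duct, had 103 UMIs (KO) and 1 UMI (WT) (5.81, 3.30 to 11.1). Krt15 (1.22, 1.01 to 1.43) was higher as well, and Krt23, a type I simple keratin at 125 CPM in WT and 55.9 CPM in KO, was lower (-1.16, -1.67 to -0.66).

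The 43.9 CPM of Krt10 in WT was close to its level in mesenchyme or fibroblast-like cells of that library, 40.0 CPM (31.7 to 49.8). In KO at day 35 that class had 46.4 CPM, far below the keratinocyte-like level. Cells with at least 10 Krt10 UMIs numbered 31 of 622 in WT and 10 of 339 in KO at day 25, and 0 of 142 and 19 of 161 at day 35. By the floor of 3 counts the 0 of 142 allows a share of up to 2.11%, and its Clopper-Pearson upper bound is 2.56%. All 15 KO cells of day 35 with at least 10 Krt1 UMIs also had at least 10 Krt10 UMIs, and the 10 richest cells held 77.4% of that library's Krt10 UMIs in the class and 87.8% of its Krt1 UMIs.

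The 22 non-keratin keratinocyte markers were also lower in the WT class of day 35 than in the KO class (6144 and 14734 CPM), and its median depth was 3569 UMIs against 5457; the part of either in the keratin result was not tested. With each library clustered on its own, Krt1 had a log2 ratio of 6.51 with WT at the floor and Krt10 one of 4.66, while that of Krt15 was 0.04 and the summed keratin level turned from 0.59 (0.53 to 0.64) to -0.11. In that clustering the KO class had 354 cells, of which 152 came from the joint class and 187 from the joint otic class. The calls of Krt4 (1.80) and Krt13 (1.28) rest on 8 and 11 WT UMIs, and both became -0.59 with the stricter cell filter. Over all kept cells of KO day 35 Krt4 had a UMI in 6 cells and Krt13 in 14.

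**Figure D4:**
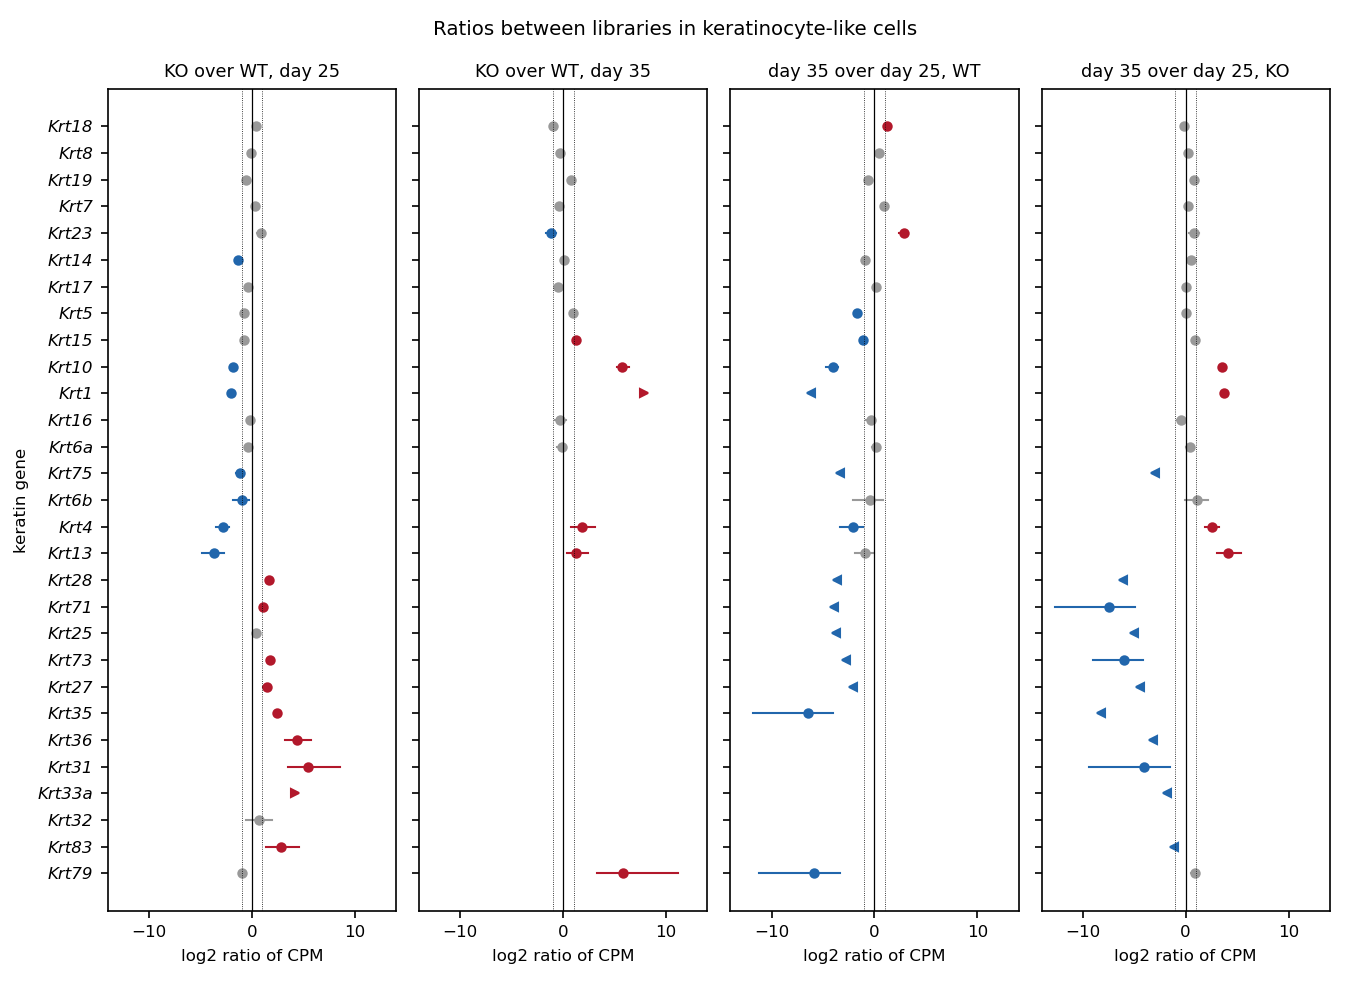
Log2 ratio of CPM between libraries in keratinocyte-like cells for each keratin with at least 20 UMIs over both libraries, with exact 95% intervals of counting error; red and blue mark genes called higher and lower, grey those not called. Triangles stand for a gene with 0 UMIs in 1 library, placed at the floor of 3 counts and pointing to the side on which the ratio may be larger; dotted lines mark 2-fold. Krt1 and Krt10 lie left of 0 in the first panel and right of it in the second.

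From day 25 to day 35 in WT, keratinocyte-like cells had 2 keratins called higher and 13 lower of 24 compared, where 7.31% of all 11044 genes compared were called higher and 5.22% lower. The median log2 ratio of the 24 was -1.37, against -0.01 for all genes. The lower ones took in the suprabasal pair, Krt10 (-4.07, -4.67 to -3.53) and Krt1 (1996 to 0 UMIs; -6.13 at the floor), the basal Krt5 (-1.65, -1.85 to -1.46) and Krt15 (-1.09, -1.29 to -0.90), all 5 inner root sheath members named above, the mucosal Krt4, Krt35, Krt75 and Krt79. Higher were the simple keratins Krt23, from 17.5 to 125 CPM (2.84, 2.39 to 3.28), and Krt18 (1.26, 1.13 to 1.37). Krt18 was under 2-fold in 4 alternatives, at 0.97 without the finer cluster, 0.90 as a mean over cells, 0.72 with the stricter filter and 0.16 with libraries clustered alone.

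In KO over the same days 4 keratins were called higher and 11 lower of 28 compared, where 5.72% of all 10351 genes compared were called higher and 4.74% lower. Higher were Krt10 (3.502, 3.38 to 3.62), Krt1 (3.73, 3.55 to 3.92), Krt4 (2.54, 1.85 to 3.26) and Krt13 (4.12, 3.08 to 5.33), that is the suprabasal and mucosal pairs. The mucosal pair rests on few cells. Over all kept KO cells Krt4 had 28 UMIs in 8 cells at day 25 and 52 in 6 cells at day 35. Krt13 had 11 UMIs in 7 cells and 54 in 14 cells. The 11 lower keratins were the 5 inner root sheath members, 5 shaft members and Krt75: Krt35 went from 2865 to 0 UMIs (-8.22 at the floor) and Krt28 from 674 to 0 (-6.14 at the floor). The basal keratins Krt14 (0.49), Krt5 (0.02) and Krt17 (0.03) were not called. The summed level was higher on day 35 in KO (0.52, 0.49 to 0.55) and lower in WT (-0.55, -0.59 to -0.50); with libraries clustered alone the KO value was -0.12.

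**Figure D5:**
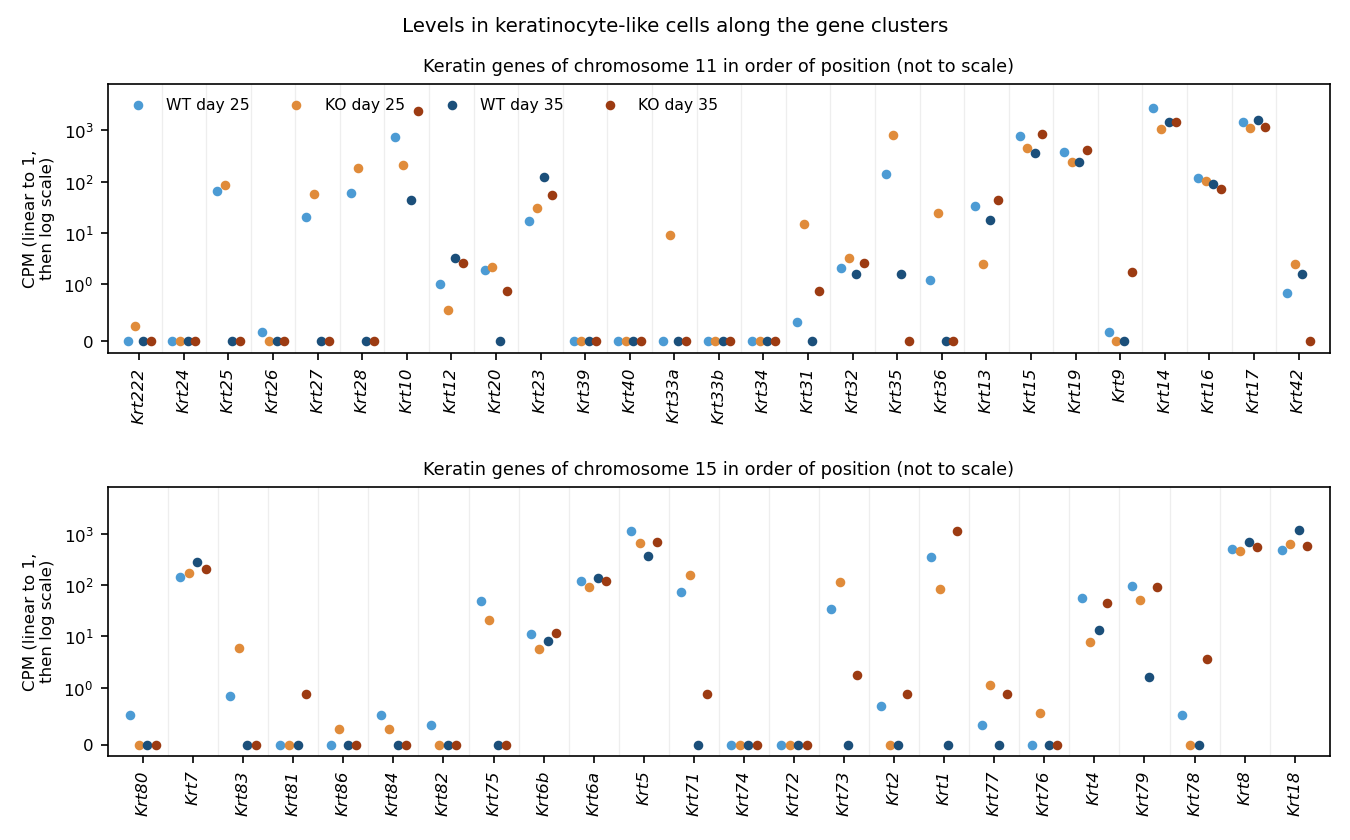
Level in keratinocyte-like cells (CPM, linear up to 1 and logarithmic above) of each keratin gene in order of position on chromosome 11 (type I) and chromosome 15 (type II, and Krt18), not to scale, 1 point per library. The inner root sheath genes Krt25, Krt27 and Krt28 of chromosome 11 and Krt71 and Krt73 of chromosome 15 have points above 10 CPM only in the 2 libraries of day 25, while their neighbours Krt10 and Krt1 do not follow that pattern.

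In the otic class the keratins were nearly all simple: 93.1% to 97.3% of keratin UMIs in each library were of the simple group, and the basal group was at 118, 28.0, 35.6 and 51.5 CPM. Of the keratins compared, KO over WT at day 25, 0 of 9 were called higher and 4 lower, where 3.01% of all 10388 genes compared were called higher and 1.94% lower. Of the simple pair, Krt18 had a log2 ratio of -0.07 (-0.14 to 0.01) and Krt8 of 0.05 (-0.05 to 0.15), and neither interval reached 2-fold. The 4 lower were keratins of stratified epithelium, Krt5 (75.3 and 18.7 CPM; -2.01, -2.57 to -1.48), Krt14 (19.5 and 2.59 CPM; -2.91, -4.60 to -1.58), Krt17 (19.1 and 5.19 CPM; -1.88, -3.04 to -0.86) and Krt1 (28 UMIs and 1; -4.61, -9.97 to -2.02). The 28 Krt1 UMIs of WT lay in 7 of 190 otic cells. Mesenchyme or fibroblast-like cells of day 25 also had less of these 4 genes in KO. There Krt5 was at 7.39 and 2.03 CPM, Krt14 at 21.8 and 4.78, Krt17 at 11.1 and 3.46 and Krt1 at 2.82 and 0.305 (WT and KO).

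At day 35, 2 of 11 keratins were called higher in KO and 2 lower, where 3.53% of all 12166 genes compared were called higher and 2.29% lower. Higher were Krt14 (5.42 CPM in WT and 13.1 in KO; 1.27, 0.63 to 1.96) and Krt15 (4 and 87 UMIs; 3.63, 2.22 to 5.54), and lower were Krt17 (20.4 and 10.1 CPM; -1.01, -1.45 to -0.56) and Krt78 (19 and 13 UMIs; -1.36, -2.50 to -0.26). Krt18 (-0.31, -0.35 to -0.28) and Krt8 (-0.12, -0.18 to -0.06) were slightly lower in KO and not called. With libraries clustered alone Krt14 became -1.37, Krt15 -0.15 and Krt78 0.17, and Krt17 became 0.35 with the stricter filter, so none of these 4 kept its direction in every alternative.

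Of the keratinocyte genes, Lgals7, which led the keratinocyte-like class and was picked after its values were seen, was at 54.0 and 12.4 CPM in otic cells of WT and KO at day 25 and at 1.30 and 18.7 CPM at day 35. Like Krt14 it was lower in KO at day 25 and higher in KO at day 35. All 22 keratinocyte markers together were at 285, 197, 284.7 and 263 CPM in the otic class, with 3 to 5 of them at 0 in each library, and at 93.9 to 182 CPM in hair cell-like cells. The summed markers were thus lower in KO on both days. Of the cornified envelope genes compared in otic cells at day 35, KO over WT, 1 of 7 was called higher and 3 lower. Among all genes compared there, 3.53% were called higher and 2.29% lower. The part of keratinocyte genes in the otic values was not tested.

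Between days, otic cells of WT had 0 keratins called higher and 3 lower of 9, where 5.69% of all 11152 genes compared were called higher and 9.58% lower: Krt5 (-3.08, -3.61 to -2.58), Krt14 (-1.85, -2.62 to -1.10) and Krt1 (-1.17, -2.00 to -0.35). In KO 2 were called higher and 1 lower of 10, where 3.58% of all 11869 genes compared were called higher and 6.20% lower. Higher were Krt14 (2.34, 1.07 to 3.99) and Krt15 (3 and 87 UMIs, a log2 ratio of 2.79, 1.20 to 5.10), and lower was Krt19, from 48.2 to 20.04 CPM (-1.27, -1.64 to -0.88). Krt14 in KO became -1.13 with no filter on cells, and Krt15 became -0.42 with keratins kept in the clustering. In KO at day 35 the 87 Krt15 UMIs lay in 12 of 1241 otic cells, and 10 cells held 97.7% of them and 84.9% of the 106 Krt14 UMIs. Krt18 was at 0.45 (0.40 to 0.51) in WT and 0.21 (0.15 to 0.27) in KO and Krt8 at 0.08 (0.00 to 0.17) and -0.09 (-0.17 to -0.01), and none was called.

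The summed otic level differed by well under 2-fold: its log2 ratio was -0.09 (-0.15 to -0.03) and -0.24 (-0.27 to -0.21), KO over WT at day 25 and day 35, and 0.25 (0.21 to 0.30) and 0.10 (0.06 to 0.15), day 35 over day 25 in WT and KO. Each of the 4 values changed sign in at least 1 alternative, to 0.35 with libraries clustered alone at day 25, and with the stricter filter to 0.15 at day 35, -0.18 in WT and -0.03 in KO.

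The balance of the pairs differed by tissue. The Krt18 over Krt8 ratio of UMIs in the otic class of day 25 was 1.91 (1.80 to 2.02) in WT and 1.75 (1.65 to 1.87) in KO, and that of day 35 was 2.46 (2.37 to 2.56) in WT and 2.16 (2.09 to 2.22) in KO. In cluster 17 it was 1.87, 1.89, 2.77 and 2.31, and in keratinocyte-like cells 0.96, 1.40, 1.70 and 1.06, lower than in the otic class of the same library each time. In the otic class and in cluster 17 the ratio of day 35 exceeded that of day 25, whichever the genotype. Over all keratins type I UMIs were 2.72, 2.76, 3.45 and 2.49 times type II UMIs in keratinocyte-like cells and 1.83, 1.79, 2.47 and 2.17 times in the otic class.

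The Krt14 over Krt5 ratio was 2.37, 1.58, 3.98 and 2.19 in keratinocyte-like cells. In all remaining cells, where these genes were at 0.533 to 23.9 CPM, it was 2.59 (2.35 to 2.85), 1.39 (1.18 to 1.64), 3.92 (2.05 to 8.11) and 2.00 (1.33 to 3.05), and in each library the interval took in the keratinocyte-like ratio. In the otic class it was 0.26 (0.18 to 0.36), 0.14 (0.04 to 0.36), 0.61 (0.36 to 1.03) and 0.75 (0.58 to 0.97), with more UMIs of Krt5 than of Krt14 in each library. The otic values thus lay outside the ratio of the keratinocyte-like cells of their own library.

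Krt10 differed from Krt14 in this respect. Its ratio over Krt1 was 2.16, 2.48 and 2.11 in keratinocyte-like cells of WT day 25, KO day 25 and KO day 35, but 6.24, 33.4 and 20.9 in the remaining cells of those libraries. Krt10 was found in every class at a low level, 20.98 to 32.6 CPM in all remaining cells and 24.4 to 34.4 CPM in the otic class, where Krt1 was at 0.311 to 3.36 and 0.519 to 12.7 CPM.

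Other genes of the keratin cytoskeleton were compared from lists of desmosome, hemidesmosome, cornified envelope, other intermediate filament and epithelial transcription factor genes. In keratinocyte-like cells at day 25, KO over WT, 0 of 13 desmosome genes, 0 of 9 hemidesmosome genes and 0 of 13 transcription factors were called in either direction, where 2.66% of all genes compared were called higher and 2.35% lower. Of 15 cornified envelope genes 2 were called higher, Flg (2.23 and 84.95 CPM; 5.25, 4.46 to 6.18), the filament-bundling protein of the granular layer, and Cnfn (61.0 and 257 CPM; 2.07, 1.90 to 2.25), and none lower. Of 9 other intermediate filament genes 1, Nes, was called lower (-1.45, -2.40 to -0.60).

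At day 35 the cornified envelope list had 5 members called higher in KO and 2 lower of 12, against 4.46% and 3.93% of all genes compared. Lgals7 (824 and 5204 CPM; 2.66, 2.53 to 2.79) and Krtdap (525 and 3258 CPM; 2.63, 2.47 to 2.80), both of which are among the class markers, were higher, and Sprr2d (1189 and 132 CPM; -3.17, -3.43 to -2.91) and Cnfn (374 and 155 CPM; -1.27, -1.56 to -0.98) lower. Desmosome genes had 1 called higher (Evpl, 1.27) of 12, hemidesmosome genes 0 of 9, other intermediate filaments 2 higher and 1 lower of 5, and transcription factors 2 higher of 10 (Ovol1, 1.40, and Gata3, 1.01).

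In keratinocyte-like cells of WT between days, 3 cornified envelope genes were called higher and 7 lower of 14, against 7.31% and 5.22% of all genes compared: Sprr2d (68.4 to 1189 CPM; 4.12, 3.94 to 4.30) and Cnfn (61.0 to 374 CPM; 2.62, 2.37 to 2.86) were higher and Lor (253 to 0 UMIs), the main protein of the cornified envelope, and Lgals7 (-2.15, -2.28 to -2.02) lower. In KO 3 were higher and 4 lower of 14, against 5.72% and 4.74% of all genes, with Lor higher (35.5 to 114 CPM; 1.69, 1.32 to 2.05) and Flg lower (84.95 to 4.44 CPM; -4.26, -5.89 to -3.02). In keratinocyte-like cells no hemidesmosome gene was called between days. Otic cells had 1 of 7 called higher and 1 lower in WT, against 5.69% and 9.58% of all genes. In KO, otic cells had 1 of 7 called higher, against 3.58% of all genes called higher and 6.20% lower. In the otic class Klf4, an epithelial transcription factor, was higher at day 35 in WT (103 to 318 CPM; 1.62, 1.42 to 1.83) and in KO (62.2 to 233 CPM; 1.90, 1.64 to 2.18), and Vim, the mesenchymal intermediate filament, was lower in WT (281 to 97.2 CPM; -1.53, -1.71 to -1.35) and in KO (396 to 113 CPM; -1.81, -1.95 to -1.67).

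Genes of this family resemble each other and some overlap genes on the other strand, such as Krt8, Krt10 and Krt5. The treatment of strand and of reads that match several genes is not stated, so counts split between near copies such as Krt6a and Krt6b or Krt14 and Krt16, and from a gene and its antisense partner, cannot be told apart.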

How the data were processed

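Droplet libraries (10x Genomics 3' chemistry) of 4 inner ear organoid samples were used. Per the labels' protocols the organoids were dissociated, passed through a 40 µm strainer into 2% bovine serum albumin and loaded for a target of 10000 cells. The deposited files are matrices of UMI counts per gene and barcode, made by the authors with Cell Ranger 2.1.0 on GRCm38 (mm10), per the submitters' processing notes, which also name bcl2fastq, Seurat 2.3.1 and R 3.5.1. The sources used here do not say how strand and shared reads were handled. Gene positions came from GENCODE release M21, which matched 27645 of 27998 genes by identifier and all 51 keratins.

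Cells were barcodes of 500 or more genes whose UMIs were no more than 10% mitochondrial, 88.3% to 99.0% of a library and 6729 to 11190 cells. The 4 libraries were clustered together without the keratins, from 2000 variable genes, 30 principal components and 20 neighbours by the Leiden method at resolution 1.0 (seed 0), which gave 22 clusters. A cluster was named from 20 sets of marker genes, with at least 3 markers of a set among its 50 leading genes by fold (10 CPM added) and 2 among the first 20, and 7 clusters stayed unnamed. A doublet caller marked 0, 295, 0 and 3 barcodes, too few in 3 libraries for its threshold to be used, and all cells stayed in; as an alternative the 794, 1023, 684 and 401 highest scores (0.8% per 1000 barcodes) were left out.

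Levels are summed UMIs of a class in CPM, with exact Poisson 95% intervals. Ratios have conditional exact binomial intervals and shares Clopper-Pearson intervals; all cover counting error only. For a ratio, 0 UMIs in a class and library were replaced by the floor, 3 counts. With 1 library per group no test across samples was possible, and the code was checked on simulated counts. Members and gene lists were chosen with earlier results of these data known. Named were the 14 keratins with most UMIs, the 3 pairs given first, and at most 10 called members per comparison by the interval bound nearest to equality; other genes named by value were picked after their values were seen. Of the 5 other gene lists, the 2 highest and the 2 lowest called genes could be named. Alternatives were a stricter cell filter (1000 genes, 5%), no filter, resolutions 0.5 and 2.0, keratins kept in the clustering, each library clustered alone, other scalings, means over cells, other UMI minimums and thinning to 1000 in place of 2000 UMIs. Promoter windows came from RefSeq on GRCm38.p6. Python 3.11.15, NumPy 2.4.6, SciPy 1.17.1, pandas 2.3.3, scanpy 1.11.5, scikit-learn 1.9.0, igraph 0.11.9 and matplotlib 3.10.9 were used.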

Additional observations from a re-analysis of the deposited data

Results flagged for a closer look

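In keratinocyte-like cells the KO over WT log2 ratio pointed opposite ways on the 2 days for the suprabasal and mucosal pairs. It was -2.02 at day 25 and 7.84 at day 35 (WT at the floor of 3 counts) for Krt1, -1.82 and 5.75 for Krt10, -2.85 and 1.80 for Krt4, and -3.73 and 1.28 for Krt13. At day 25 the share of cells with at least 10 Krt1 UMIs was 3.22% in WT and 2.65% in KO. At day 35 Krt4 and Krt13 both became -0.59 with the stricter cell filter, and Krt13 -0.062 with libraries clustered alone, so that the opposite direction was lost there. Over all kept cells of KO day 35 Krt4 had a UMI in 6 cells and Krt13 in 14. Read by day, the log2 ratio of day 35 over day 25 was 3.73 in KO and -6.13 in WT (at the floor) for Krt1, 3.502 and -4.07 for Krt10, and 2.54 and -2.10 for Krt4. In otic cells Krt14 had a KO over WT log2 ratio of -2.91 at day 25 and of 1.27 at day 35, and a day 35 over day 25 ratio of 2.34 in KO and -1.85 in WT. The value at day 35 became -1.37 with libraries clustered alone and -0.71 with keratins kept in the clustering, and the KO value over days -1.13 with no filter; 10 of 1241 cells held 84.9% of the 106 Krt14 UMIs of KO day 35. Each of these differences between days or genotypes comes from 1 library per group and was not tested, and the 2 ways of reading them use the same 4 libraries.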

How the results depend on the processing

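Of 1336 values under an alternative, 701 were of called ratios, of which 647 stayed at least 2-fold and 12 changed sign. Of the 1336, 1035 stayed within the interval of the main value and 289 moved out of it. The alternatives differed much. With libraries clustered alone 65 of 127 values moved out and 55 of 67 called ones stayed at least 2-fold. With the stricter filter these were 70 of 127 and 56 of 67. At resolution 0.5 all 127 stayed within. The cause was not tested. In the order day 25 and day 35 (KO over WT), WT and KO (day 35 over day 25), the log2 ratio of the summed level in keratinocyte-like cells was -0.42, 0.31, -0.41 and 0.32 with at least 1000 genes and at most 5% mitochondrial UMIs, -0.43, 0.69, -0.43 and 0.69 as a mean over cells, and -0.55, -0.11, within its interval, and -0.12 with libraries clustered alone. In otic cells it was 0.0026, 0.15, -0.18 and -0.028 with the stricter filter, -0.23, -0.28, 0.34 and 0.30 as a mean over cells, 0.35, -0.51, 0.71 and -0.15 with libraries clustered alone, and -0.16, -0.36, 0.40 and 0.19 at resolution 2.0. With no filter on cells it was 0.66 (day 35) and -0.60 (WT) in keratinocyte-like and 0.16 (KO) in otic cells, and without the highest doublet scores -0.63 (WT) and 0.45 (KO) in keratinocyte-like and -0.0029 (day 25) and 0.040 (KO) in otic cells. Keratins kept in the clustering gave 0.51 (day 35) and 0.44 (KO) in keratinocyte-like cells. Scaling without mitochondrial and ribosomal protein genes gave -0.66 (WT) and 0.39 (KO) in keratinocyte-like and 0.14 (WT) and -0.027 (KO) in otic cells, and values relative to the median of all genes were 0.49 (day 35) and 0.45 (KO) in keratinocyte-like and -0.37 (day 35) and 0.35 (WT) in otic cells. Without the cluster led by Mt4, Dapl1 and S100a3, an alternative chosen after seeing the data, the keratinocyte-like values were -0.25 (day 25) and 0.27 (KO), and Krt83, KO over days, was at 0.54 at the floor.

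Called ratios that changed sign were, in keratinocyte-like cells, Krt75 (0.080 at day 25), Krt4 (-0.59 at day 35) and Krt13 (-0.59 at day 35) with the stricter filter and Krt13 (-0.062 at day 35) with libraries clustered alone. In otic cells at day 35 they were Krt17 (0.35) with the stricter filter, Krt14 (-1.37), Krt15 (-0.15) and Krt78 (0.17) with libraries clustered alone, and Krt14 (-0.71) with keratins kept in the clustering; over days in KO they were Krt14 (-1.13) with no filter and Krt15 (-0.42) with keratins kept. Called otic keratins numbered 2 at day 25 with at least 50 UMIs, and 6 (WT) and 5 (KO) over days with no minimum. Type I over type II UMIs were 3.97 in keratinocyte-like WT day 35 with libraries clustered alone. Thinned to 1000 UMIs, 34.2%, 28.8%, 39.1% and 34.005% of otic cells had both Krt8 and Krt18, and 30.2%, 19.5%, 19.01% and 29.2% of keratinocyte-like cells both Krt5 and Krt14. Genes with at most 3 UMIs in both libraries, and genes at 0 as a mean over cells, gave no value. No paired analysis was possible because each group has 1 library. At day 25 the 20 (WT) and 10 (KO) hair cell-like cells, and the 190 and 170 otic cells, limit what could be seen in those classes.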

Other observations

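Krt17 was at 310.8 CPM in the oligodendrocyte lineage-like cluster of WT day 25 and at 3.77 CPM in that of KO day 25. In WT day 25, 204 of its 212 UMIs, 96.2%, were in 1 of 79 cells. In the skeletal muscle-like cluster led by Myl4, Myl1 and Tnnc1, Krt8 had a UMI in 32.02% of cells of WT day 25 and 31.3% of KO day 25, and in 14.4% and 10.5% of those of day 35. Both genes were picked after their values in these clusters were seen.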
